A study of Mus musculus with 10 samples.

Results

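The genes that build iron-sulfur clusters in mitochondria were examined in the murine SCLC (small cell lung cancer) line from a primary tumor that the study treated with stiripentol. The 9 genes were *Nfs1*, *Lyrm4*, *Iscu*, *Glrx5*, *Isca1*, *Isca2*, *Iba57*, *Nfu1* and *Nubpl*, chosen by symbol among the 26335 rows of the deposited expression table. All 9 were found once, and all 9 were among the 12306 rows whose mean log2 CPM over the libraries was above 0 and which were tested. CPM is the number of reads of a gene per 1000000 reads of its library. There were 5 control libraries (DMSO) and 5 libraries from cells given 250 μM stiripentol, all after 48 h of culture. The tumor arose in a mouse model driven by conditional gene deletion, that of Rb1 included, in which Adeno-Cre virus was given into the trachea, so both groups carry these deletions and all libraries describe 1 line. Since the RNA was extracted from bulk cultures, fewer cells of a type and less RNA per cell cannot be told apart.

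An iron-sulfur cluster is a small inorganic cofactor that is assembled on a scaffold protein before it is handed to an enzyme. In mitochondria, NFS1 takes sulfur from cysteine, LYRM4 (ISD11) holds NFS1 in its stable form, and ISCU is the scaffold on which iron and sulfur meet. The chaperones HSPA9 and HSCB then release the cluster to GLRX5, a glutaredoxin that carries it on. ISCA1, ISCA2 and IBA57 act later to make the larger, cubane type of cluster. NFU1 delivers such clusters to lipoyl synthase and other enzymes, and NUBPL (IND1) is needed to fit them into complex I. Complex I, the respiratory enzyme on which the study centred, carries a chain of these clusters that leads electrons from NADH to ubiquinone.

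The total per library was 22375625 to 65299372 reads for control and 55015760 to 60670901 for stiripentol cells. Within each group the libraries fell into 2 clusters. Controls 1 to 3 and stiripentol 3 to 5 are called set A here, and controls 4 and 5 with stiripentol 1 and 2 set B. The clusters of the 2 groups were put together by their size alone, since no label names them. The paper prints the controls in another order, with controls 4 and 5 of this text first. By its numbers, libraries 1 and 2 are set B and 3 to 5 are set A in both groups. The paper does not say what these numbers stand for. They were drawn from the log2 CPM of the tested genes themselves, so the spread within a cluster is small by construction. The p-values within a set and of the difference between the sets are therefore given as a description. Across genes, libraries correlated at 0.983 to 0.997 within a group and cluster and 0.920 to 0.939 between the clusters of a group. Control 5 had the lowest total, and controls 1 to 3 were normalized apart from the other 7 libraries. These 7 are controls 4 and 5, both of set B, and all stiripentol libraries, of both sets. A comparison within them is thus not balanced between the sets. In set A, all controls and none of the stiripentol libraries were normalized apart. Treatment and normalization therefore cannot be told apart within set A, which also bears on the differences between the sets. All p-values below treat each library as a replicate, although nothing in the labels says that they came from separate cultures, and the spread between them may be technical. When each cluster was averaged first, leaving 2 means against 2, limma called 0 genes at an adjusted p under 0.05, and 1116 had an unadjusted p under 0.05. Of 7 neuroendocrine markers 5 were in the table, and 2 of them had a mean above 1 CPM. The epithelial *Epcam* was at no more than 0.0447 CPM. *Ncam1* stood at 92.8 to 117 CPM in control and 126 to 154 CPM in stiripentol libraries, *Krt8* at 1049 to 1274 and 793 to 974 CPM, and *Krt18* at 1163 to 1489 and 689 to 1312 CPM. The 2 markers of other small cell states, *Pou2f3* and *Yap1*, summed to 149 to 176 CPM in control and 49.2 to 120 CPM in stiripentol libraries. Nearly all of this was *Yap1*, with *Pou2f3* at 0.845 to 4.51 CPM in control and 0.0517 to 0.267 CPM in stiripentol libraries. The 3 leukocyte markers summed to 6.41 to 18.6 CPM in control and 58.8 to 103 CPM in stiripentol libraries, mostly from *Cd68*, with *Ptprc* at no more than 0.0517 CPM. The 4 fibroblast markers summed to 167 to 392 CPM in control and 105 to 127 CPM in stiripentol libraries, and the 2 endothelial markers to 0.179 to 0.886 CPM in all libraries. The part of these markers in the results below was not tested.

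With stiripentol, 2 of the 9 assembly genes rose, *Nfu1* and *Lyrm4*, and 1 fell, *Nfs1* (limma, adjusted p under 0.05). The other 6 did not pass. Of all 12306 genes tested, 27.7% were called in the same comparison, with 14.1% lower and 13.6% higher, so the share of called assembly genes (33.3%) was near that of all genes. The groups did not overlap for 6 of the 9 genes, *Nfu1*, *Lyrm4*, *Isca2* and *Nubpl* with stiripentol above and *Nfs1* and *Iba57* with stiripentol below, against 27.2% of all genes. The log2 changes of the 9 genes ran from -1.43 for *Iba57* to 1.14 for *Nfu1*, with a median of 0.14. The median over all tested genes was -0.06. Changes are given with their standard error (SE).

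**Figure D1:**
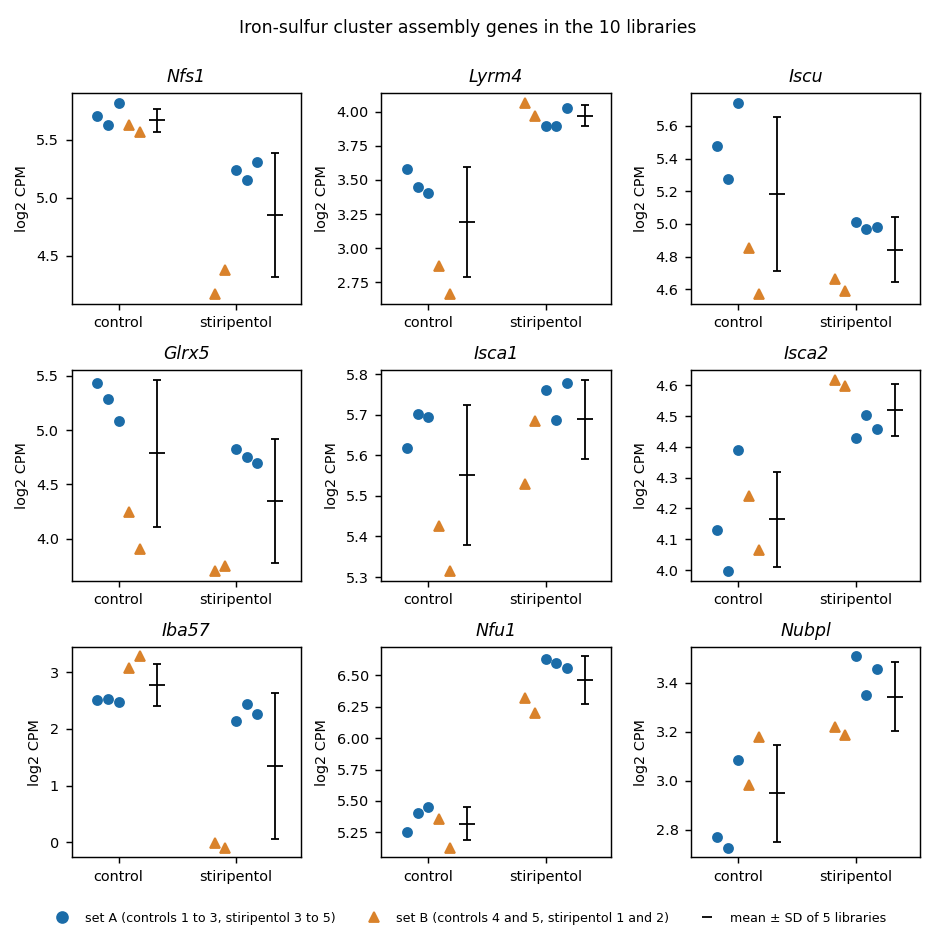
The log2 CPM (vertical axis) of the 9 iron-sulfur cluster assembly genes in each control and stiripentol library, with circles for set A, triangles for set B and black bars for the mean ± SD of 5 libraries. The groups are apart for Nfu1, Lyrm4, Isca2, Nubpl, Nfs1 and Iba57. The 2 sets stand apart within both groups for Iscu, Glrx5 and Iba57. They also do so for Nfs1 (narrowly in control) and Isca1 (narrowly in stiripentol). For others, such as Lyrm4 (control) and Nfu1 (stiripentol), the sets stand apart within 1 group.

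The RNAs of the 2 interacting proteins of the first step changed in opposite directions. *Nfs1*, the cysteine desulfurase (GRCm38, chr2:156123639-156144186, minus strand, 13 merged exons), stood at 52.1, 49.3, 56.3, 49.2 and 47.2 CPM in controls 1 to 5. In stiripentol 1 to 5 it stood at 18.0, 20.7, 37.6, 35.5 and 39.6 CPM. Every stiripentol library was thus below every control, and stiripentol 1 and 2 were the lowest. *Nfs1* fell by 0.82 on the log2 scale (SE 0.23, limma adjusted p = 0.0229), which is 43.3% lower. The fall was -0.48 in set A (SE 0.08) and -1.32 in set B (SE 0.13), and this difference of -0.84 between the sets passed the test (limma interaction, adjusted p = 0.000262). Of all genes, 63.3% had such an interaction. The call of *Nfs1* rested on single libraries, since without control 3 the adjusted p was 0.0543 and without stiripentol 2 it was 0.0545 (limma). It was not called in the 7 libraries of 1 normalization either (-0.74).

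*Lyrm4*, whose product stabilizes NFS1 (chr13:35978395-36117526, minus strand, 3 merged exons), went the other way. It stood at 11.9, 10.9, 10.5, 7.26 and 6.30 CPM in controls 1 to 5 and at 16.7, 15.6, 14.8, 14.8 and 16.3 CPM in stiripentol 1 to 5. The stiripentol libraries lay close together, above all controls, and controls 4 and 5 were the lowest. *Lyrm4* rose by 0.78 on the log2 scale (SE 0.20, limma adjusted p = 0.0157), which is 1.71-fold. The rise was 0.46 in set A and 1.25 in set B (limma interaction, adjusted p = 0.00106). The control mean was 11.1 CPM in set A and 6.78 CPM in set B, and the stiripentol mean was 15.3 and 16.1 CPM.

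*Nfs1* and *Lyrm4* also share a position in the genome that the choice of genes did not use. Each starts head to head with another gene on the opposite strand, and their exons overlap at the start. *Nfs1* shares 148 exonic bases with *Romo1*, which encodes a small protein of the mitochondrial inner membrane, and *Lyrm4* shares 115 with *Fars2*, the mitochondrial phenylalanyl-tRNA synthetase (GENCODE M21). The promoter windows of both genes are printed since each holds bases that belong to both genes of a pair, 50 for *Nfs1* and 115 for *Lyrm4*. They run from 250 bases before to 50 bases after the RefSeq start (GRCm38.p6), at chr2:156144137-156144436 and chr13:36117308-36117607, both on the minus strand. Capitals mark the bases that are exonic in both genes in GENCODE. The RefSeq start of *Lyrm4* lies inside its GENCODE span, and all 115 capitals of its window come before that start. The overlap of *Lyrm4* with *Fars2* thus rests on the GENCODE model and is absent by this RefSeq start.
Nfs1: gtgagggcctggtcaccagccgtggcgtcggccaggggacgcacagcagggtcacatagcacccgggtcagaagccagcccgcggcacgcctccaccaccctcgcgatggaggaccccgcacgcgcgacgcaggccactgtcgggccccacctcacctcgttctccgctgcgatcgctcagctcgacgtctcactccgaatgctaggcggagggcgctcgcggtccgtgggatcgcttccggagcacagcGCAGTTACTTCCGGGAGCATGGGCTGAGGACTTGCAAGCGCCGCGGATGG
Lyrm4: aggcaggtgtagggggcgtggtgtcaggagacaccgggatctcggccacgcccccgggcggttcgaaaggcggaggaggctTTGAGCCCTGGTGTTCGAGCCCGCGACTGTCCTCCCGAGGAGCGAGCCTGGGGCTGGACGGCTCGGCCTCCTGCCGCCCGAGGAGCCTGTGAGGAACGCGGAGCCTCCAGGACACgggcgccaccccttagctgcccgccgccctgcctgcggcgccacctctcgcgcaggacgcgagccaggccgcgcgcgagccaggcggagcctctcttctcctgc

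In each of these pairs both genes moved the same way. *Romo1* stood at 33.9 to 47.6 CPM in control and 17.5 to 24.7 CPM in stiripentol libraries and fell by 0.97 on the log2 scale (SE 0.16, limma adjusted p = 0.00189). *Fars2* stood at 15.0 to 23.6 CPM in control and 28.4 to 54.5 CPM in stiripentol libraries, and its log2 change was 0.97 (SE 0.23, limma adjusted p = 0.0128). The groups did not overlap for either gene. Stiripentol 1 and 2 were the highest libraries for *Fars2*, and they were the lowest for *Romo1* as for *Nfs1*. Whether the counting used the strand is not given in the sources used here, so reads from a gene and its opposite-strand partner cannot be told apart over the shared bases. *Nfs1* also shares 256 exonic bases with *Gm28036*, a gene model on the same strand. *Gm28036* stood at 38.8 to 62.9 CPM in control and 18.1 to 29.7 CPM in stiripentol libraries and fell by 1.08 (SE 0.20, limma adjusted p = 0.00329), and reads of the shared bases cannot be told apart from those of *Nfs1* either.

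Head-to-head starts were found for 6 of the 9 assembly genes within 1000 bases, a search made after the values of *Romo1* and *Fars2* were seen. In 4 cases the partner codes for protein, and 10.9% of all protein-coding genes have such a protein-coding partner (2384 of 21951). *Iscu* starts 238 bases from *Sart3*, a splicing factor, and *Isca2* starts 99 bases from *Npc2*, a lysosomal cholesterol carrier. The log2 change of *Sart3* was -0.47 (limma adjusted p = 0.142) beside -0.34 for *Iscu*, and that of *Npc2* was 0.08 (adjusted p = 0.772) beside 0.36 for *Isca2*. None of these 4 genes passed the test over all 10 libraries, although *Sart3* was called lower in set A (-0.48, limma adjusted p = 0.00111) and in set B (-0.45, adjusted p = 0.0124). The partners of *Isca1* (*Etohd2*) and *Glrx5* (*Snhg10*) are noncoding and were below 1 CPM in every library.

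**Figure D2:**
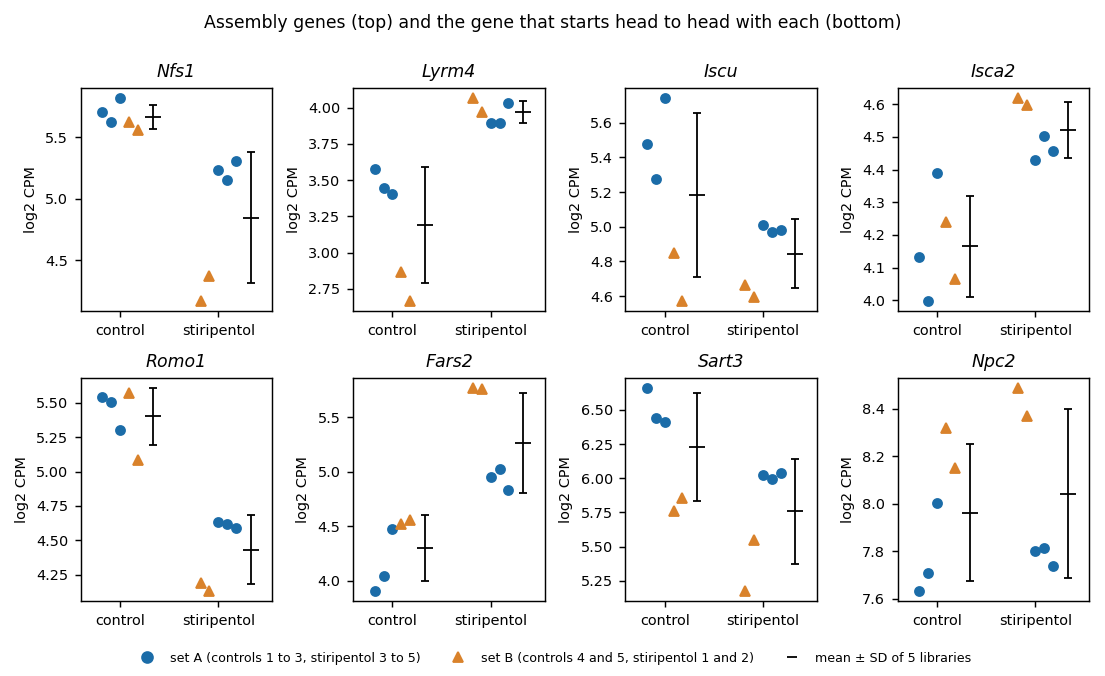
The log2 CPM (vertical axis) of 4 assembly genes (top) and of the protein-coding gene that starts head to head with each (bottom) in control and stiripentol libraries, with circles for set A, triangles for set B and black bars for the mean ± SD of 5 libraries. Nfs1 and Romo1 are both below control in every stiripentol library, and Lyrm4 and Fars2 are both above.

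*Nfu1*, the carrier that delivers clusters to target enzymes, had the smallest adjusted p of the 9 genes (chr6:87009236-87028461, plus strand, 10 merged exons). It stood at 38.1, 42.3, 43.7, 40.9 and 34.9 CPM in controls 1 to 5 and at 79.9, 73.4, 98.8, 96.8 and 94.3 CPM in stiripentol 1 to 5. The lowest stiripentol library was well above the highest control. The log2 change was 1.14 (SE 0.12, limma adjusted p = 0.000214), which is 2.21-fold. It was 1.22 in set A (SE 0.07) and 1.02 in set B (SE 0.12), and these did not differ beyond their error (limma interaction, adjusted p = 0.192). *Nfu1* was called in all 10 fits that left out 1 library and in each set alone. The annotated copy *Gm7859*, a processed pseudogene that matches *Nfu1* over 771 bases at 95.7% identity, has no row in the table, so how reads that fit both were counted is not known.

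The promoter of *Nfu1* is printed because this gene had the largest rise (RefSeq, GRCm38.p6, chr6:87009586-87009885, plus strand, with a start inside the GENCODE span). Of the 9 genes, 8 had a promoter of this kind in the RefSeq table, and these were searched on both strands for 6 motifs. Capitals mark a match to the NF-Y motif CCAAT, here on the other strand, and one to the NRF1 motif, also on the other strand, in the last 10 bases. The motifs do not overlap here.
Nfu1: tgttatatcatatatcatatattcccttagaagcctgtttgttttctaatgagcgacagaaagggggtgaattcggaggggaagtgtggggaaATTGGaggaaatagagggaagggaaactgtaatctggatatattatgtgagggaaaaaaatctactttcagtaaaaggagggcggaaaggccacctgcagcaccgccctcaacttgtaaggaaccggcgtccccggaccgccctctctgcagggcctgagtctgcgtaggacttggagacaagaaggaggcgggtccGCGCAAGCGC

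NRF1 (nuclear respiratory factor 1) is known for its sites in promoters of mitochondrial protein genes. Its motif was present in 2 of the 8 promoters, those of *Nfu1* and *Isca1*, and in 4.60% of all 32851 promoters. The ETS motif CCGGAAGT was present in 2 of the 8, those of *Nfs1* and *Isca1*, and in 3.89% of all. The NF-Y motif was present in 5 of the 8 and in 37.4% of all, and *Glrx5* had 4 matches to it. The E-box CACGTG was present in *Nubpl* (7.15% of all), and the YY1 motif AANATGGCG in *Isca2* (2.38% of all). The ATF4 motif TGATGNAA was in none of the 8, against 3.97% of all, and neither *Iba57* nor *Lyrm4* held any of the 6 motifs. G and C made up 73.3% of the *Lyrm4* promoter, 69.7% of *Nfs1*, 65.7% of *Isca1* and 64.0% of *Iba57*. They made up 63.0% of *Isca2*, 60.0% of *Glrx5*, 50.3% of *Nfu1* and 45.3% of *Nubpl*. The median over all promoters was 52.7% (upper quartile 61.7%). The part of this composition in the motif shares was not tested.

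*Iba57*, a late-acting assembly factor (chr11:59155369-59163739, minus strand, 5 merged exons), was the gene in which the 2 sets differed most. It stood at 5.67, 5.72, 5.51, 8.40 and 9.65 CPM in controls 1 to 5 and at 0.956, 0.897, 4.34, 5.36 and 4.76 CPM in stiripentol 1 to 5. Stiripentol 1 and 2 thus held far fewer reads than any other library, 58 and 52, with 95% Wilson intervals of 0.740 to 1.24 and 0.684 to 1.18 CPM. These intervals cover counting error only, since amplified reads are not independent molecules. The log2 change was -1.43 over all libraries (SE 0.54, limma adjusted p = 0.0692), -0.23 in set A (SE 0.11, adjusted p = 0.116) and -3.23 in set B (SE 0.21, adjusted p = 2.46e-07). The difference of -3.00 between the sets passed the test (limma interaction, adjusted p = 7.77e-07). The median over all genes was 0.08 in set A and -0.25 in set B.

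The other late-acting genes did not pass the test over all libraries. *Isca2* (chr12:84773251-84775088, plus strand) stood at 15.9 to 20.9 CPM in control and 21.5 to 24.5 CPM in stiripentol libraries, and its log2 change of 0.36 (SE 0.12) had a limma adjusted p of 0.0539. *Isca1* (chr13:59755409-59769810, minus strand) stood at 39.8 to 52.0 CPM in control and 46.2 to 54.8 CPM in stiripentol libraries, and its log2 change was 0.14 (95% confidence interval -0.11 to 0.39, limma adjusted p = 0.376). A transcript that is 99.0% identical to *Isca1* over 1914 bases, *AK157302*, held 133 reads in the control and 135 in the stiripentol libraries, against 13135 and 15013 for *Isca1*.

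*Nubpl*, the complex I assembly factor of the family (chr12:52097737-52312744, plus strand, 15 merged exons), stood at 6.78, 6.59, 8.45, 7.86 and 9.03 CPM in controls 1 to 5. In stiripentol 1 to 5 it stood at 9.28, 9.07, 11.3, 10.2 and 10.9 CPM. The stiripentol libraries were all higher than the controls, but the gap between 9.03 and 9.07 CPM was narrow. The log2 change was 0.40 (SE 0.16, limma adjusted p = 0.0843). It was 0.58 in set A, where it passed the test (limma adjusted p = 0.00385), and 0.12 in set B, where it did not (0.494). The difference between the sets had an adjusted p of 0.0525 (limma interaction).

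For the scaffold *Iscu* (chr5:113772748-113778288, plus strand) and the carrier *Glrx5* (chr12:105032688-105042906, plus strand) the groups overlapped and the 2 sets stood apart. *Iscu* stood at 44.4, 38.6 and 53.4 CPM in controls 1 to 3 but at 28.8 and 23.7 in controls 4 and 5. In stiripentol cells it stood at 25.3 and 24.1 CPM in libraries 1 and 2 and at 32.2, 31.3 and 31.5 in libraries 3 to 5. *Glrx5* stood at 43.1, 39.0 and 33.9 CPM in controls 1 to 3 and at 18.9 and 14.9 in controls 4 and 5, and at 13.0 and 13.4 CPM in stiripentol 1 and 2 and 28.2, 27.0 and 26.0 in stiripentol 3 to 5. Set B was the lower set in both groups for both genes. The log2 change of *Iscu* was -0.34 (95% confidence interval -0.82 to 0.14, limma adjusted p = 0.257) and that of *Glrx5* was -0.44 (-1.23 to 0.34, adjusted p = 0.363). Within set A both were called lower, by 0.51 each (limma adjusted p = 0.00557 and 0.00262), and within set B neither was (-0.08 and -0.35). All set A controls were normalized apart from the set A stiripentol libraries, and the part of this was not tested. The difference between the sets was not called for either gene (0.43 and 0.16, limma interaction, adjusted p = 0.0616 and 0.443). It was called for both under quantile normalization (0.84 and 0.75) and median-of-ratios scaling (0.83 and 0.57). Such scaling moves whole libraries, and the share of all genes called under it is not given here. The changes of *Iscu* and *Glrx5* turned to positive values, 0.13 and 0.27, when only the 7 libraries of 1 normalization were compared. The controls left there were 4 and 5, of the lower set B, while the stiripentol libraries were of both sets. The part of this imbalance was not tested.

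**Figure D3:**
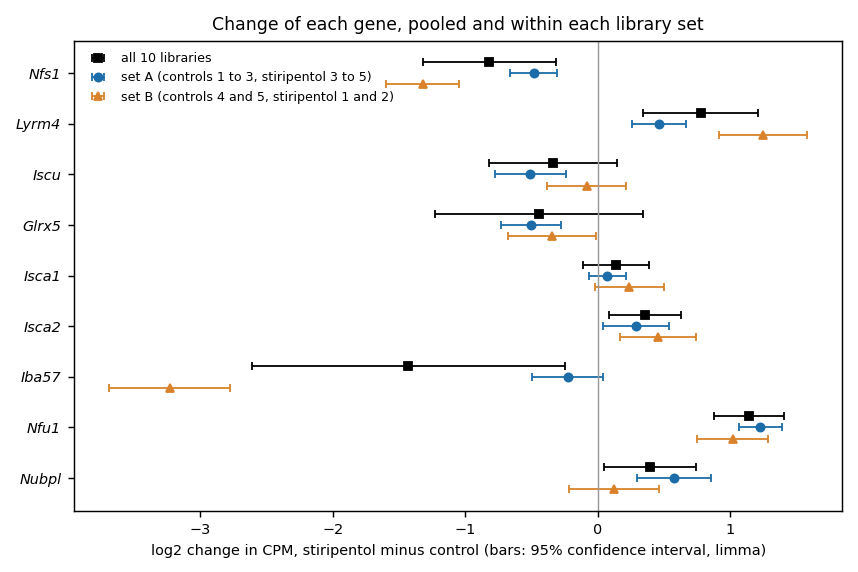
The log2 change in CPM (stiripentol minus control, horizontal axis) of each of the 9 genes over all 10 libraries (squares), in set A (circles) and in set B (triangles), with 95% confidence intervals from limma. Nfu1 moves by 1.22 in set A and 1.02 in set B, Nfs1 and Lyrm4 have a larger change in set B, and Iba57 moves by -3.23 in set B and -0.23 in set A.

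Within the sets, 3 of the 9 genes were called lower and 4 higher in set A, where 27% and 37.7% of all genes were (64.7% in all). In set B, 2 were lower and 3 higher, where 46.5% and 25.7% of all genes were (72.2% in all). In both sets *Nfs1* was lower and *Nfu1*, *Lyrm4* and *Isca2* were higher (limma, adjusted p under 0.05), although set A had 3 libraries against 3 and set B 2 against 2. The share of all genes called alike in both sets is not given here, so this is not read as particular to these genes.

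Levels were compared between the genes per kilobase of merged exons. The methods name libraries of the 3′ end, for which length should not matter, while the sample records name a kit for whole RNA, so the order is only as good as this scaling. In control cells *Iscu* was the highest, with a log2 CPM per kilobase of 4.06 ± 0.47 (SD, n = 5), followed by *Nfs1* at 3.81 ± 0.10, *Isca2* at 3.28 ± 0.15 and *Nfu1* at 3.05 ± 0.13. *Glrx5* (2.91 ± 0.68), *Isca1* (2.13 ± 0.17) and *Lyrm4* (2.13 ± 0.40) followed, and *Nubpl* (0.63 ± 0.20) and *Iba57* (0.48 ± 0.38) were the lowest. The library ranges of neighbours in this order overlapped except between *Nfs1* and *Isca2* and between *Lyrm4* and *Nubpl*. In stiripentol cells *Nfu1* was the highest, at 4.19 ± 0.19, followed by *Iscu* (3.72 ± 0.20), *Isca2* (3.64 ± 0.08) and *Nfs1* (2.99 ± 0.53). The ranges of *Iscu* and *Isca2* overlapped there, whereas those of *Nfu1* and *Iscu* and of *Isca2* and *Nfs1* did not. *Iba57* was again the lowest, at -0.97 ± 1.31, below *Nubpl* at 1.03 ± 0.14 with no overlap.

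The genes most like *Iscu* over the 10 libraries were *Dlk2*, *Macrod2* and *Msln*, with correlations of log2 CPM of 0.983, 0.963 and 0.957. Those most like *Nfs1* were *Mir22hg*, *Pdgfc* and *Lzts3*, each with a correlation of 0.996. The 10 points fall into 4 clusters of libraries, so these values are given as a description.

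Around the 9 genes, the proteins that work with the scaffold were compared, in a list of 15 symbols of which 14 were found and tested. Of these, 5 were higher with stiripentol and 0 were lower (limma, adjusted p under 0.05), a share of 35.7% beside 27.7% of all genes. Their median log2 change was 0.30. An unadjusted p under 0.05 was found for 8 of the 14 and for 41.7% of all genes. The 2 chaperones that free the cluster from ISCU had the largest rises. *Hscb*, the J-protein that binds the scaffold, stood at 7.61, 8.00, 14.7, 17.2 and 14.6 CPM in controls 1 to 5 and at 43.6, 41.4, 30.0, 29.7 and 29.0 CPM in stiripentol 1 to 5. Its log2 change was 1.54 (SE 0.26, limma adjusted p = 0.00233).

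*Hspa9*, the mitochondrial HSP70 that works with HSCB and also in protein import, stood at 561 to 1066 CPM in control and 1625 to 2445 CPM in stiripentol libraries. Its log2 change was 1.25 (SE 0.23, limma adjusted p = 0.00312), with 0.70 in set A and 2.08 in set B. *Fdx1l* (FDX2), the ferredoxin that gives electrons for cluster assembly, rose by 0.67 (adjusted p = 0.00292). *Slc25a28* (mitoferrin-2), which brings iron into mitochondria, rose by 0.48 (adjusted p = 0.0145), and *Gfer*, a sulfhydryl oxidase, by 0.43 (adjusted p = 0.0361). The call of *Gfer* was lost in 7 of 10 fits that left out 1 library (adjusted p 0.0412 to 0.0807).

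In the cytosol a second machinery builds clusters for cytosolic and nuclear proteins. Of its 11 genes tested, 1 was higher and 0 were lower, with a median log2 change of 0.11. This share of 9.09% was below the 27.7% of all genes, and 3 of the 11 had an unadjusted p under 0.05, beside 41.7% of all genes. The gene called was *Fam96b* (CIAO2B), which hands clusters to their targets with MMS19, and its log2 change was 0.93 (SE 0.22, limma adjusted p = 0.0112). In the 7 libraries of 1 normalization it was 0.50 and was not called (limma adjusted p = 0.148).

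Of the 5 complex I subunits that hold clusters, 1 was higher and 0 were lower (20%, beside 27.7% of all genes), and 3 had an unadjusted p under 0.05, beside 41.7% of all genes. The gene called was *Ndufv1*, the subunit with the NADH and FMN sites. It stood at 109 to 126 CPM in control and 147 to 178 CPM in stiripentol libraries, a log2 change of 0.49 (SE 0.09, limma adjusted p = 0.00355). The other 4 had log2 changes of -0.24 for *Ndufs1*, 0.06 for *Ndufs7*, 0.50 for *Ndufs8* and 0.21 for *Ndufv2*. Set A called 1 of the 5 lower and 2 higher, beside 27% and 37.7% of all genes. Set B called 0 lower and 3 higher, beside 46.5% and 25.7%. *Ndufs8* was called higher in both sets (0.28 and 0.81), and *Ndufs1* lower in set A only (-0.37).

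Among 11 genes of other mitochondrial cluster proteins, 2 were higher and 1 was lower, with a median of 0.13. This share of 27.3% was that of all genes (27.7%). *Cisd1* (mitoNEET), an outer membrane cluster protein, rose by 0.73 (limma adjusted p = 0.0041), while *Cisd3*, its relative inside mitochondria, fell by 0.49 (adjusted p = 0.0175). *Lias* (lipoyl synthase), an enzyme that receives clusters through NFU1, had a log2 change of 0.41 (limma adjusted p = 0.0689).

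Of 18 cytosolic and nuclear cluster proteins tested, 2 were lower and 0 were higher (11.1%, beside 27.7% of all genes), and 5 had an unadjusted p under 0.05, beside 41.7% of all genes. Those called were *Dna2*, a nuclease and helicase, at a log2 change of -1.05 (limma adjusted p = 0.0148), and *Ercc2*, a helicase of nucleotide excision repair, with -0.65 (adjusted p = 0.0204). *Ercc2* was not called in 2 of 10 fits that left out 1 library (adjusted p 0.0230 to 0.0529). *Ppat*, which has 2 rows, was left out. *Dpyd* was below the filter, with at most 0.0182 CPM.

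In the lipoylation list, which also holds *Lias*, 1 of 7 genes was lower and 0 were higher, with 2 at an unadjusted p under 0.05. The shares called were 14.3% here and 27.7% of all genes, and 41.7% of all genes had an unadjusted p under 0.05. *Lipt2*, the enzyme that starts lipoate synthesis by moving octanoate, stood at 1.61 to 3.32 CPM in control and 0.207 to 1.02 CPM in stiripentol libraries. It fell by 1.92 on the log2 scale (SE 0.47, limma adjusted p = 0.0138), with -1.49 in set A and -2.58 in set B. At these low levels the value depended on the pseudocount, and with 1 CPM added it was -1.01 (adjusted p = 0.00753). *Lipt2* was not called in the 7 libraries of 1 normalization (-1.49, limma adjusted p = 0.173). The 3 lipoyl enzyme subunits *Dlat*, *Dlst* and *Dbt* had log2 changes of 0.01, 0.19 and -0.05. In sets A and B, *Dlst* had -0.21 and 0.78 and *Dbt* 0.23 and -0.47, each called (limma, adjusted p under 0.05). *Dlat* was called in neither set. The difference between the sets was called for *Dlst* and *Dbt*, as for 63.3% of all genes (limma interaction, adjusted p under 0.05).

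**Figure D4:**
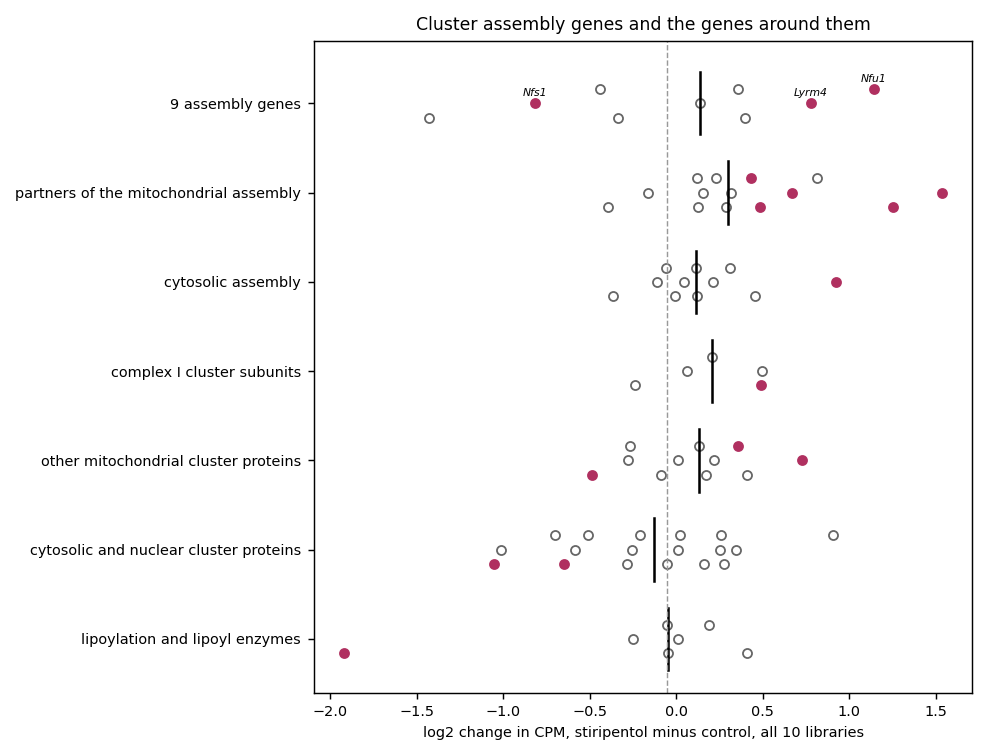
The log2 change in CPM over all 10 libraries (horizontal axis) of the 9 assembly genes and of 6 lists of related genes, with 1 point per gene, filled where called by limma at an adjusted p under 0.05 and named for the called assembly genes. Short black lines are list medians and the dashed line is the median of all tested genes, -0.06, and the partners of the mitochondrial assembly have 5 filled points, all above 0.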

How the data were processed

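RNA was measured in 5 control and 5 stiripentol libraries of 1 murine SCLC line, grouped by sample title. The authors deposited 1 table of normalized log2 CPM per gene, made in GENAVi, and the submitters' processing notes name mm10. The aligner, counter and strand setting are not given in the sources used here, and the methods and the sample records name different library kits. The deposited log2 values carry a prior, so whole reads were recovered from their steps, with 100% of the values checked within 0.05 of a whole read. The floor differed between controls 1 to 3 and the other 7 libraries. Totals of 22375625 to 65299372 reads gave the 9 genes 52 to 5792 reads per library.

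Groups were compared with limma 3.58.1 (R 4.3.3, mean-variance trend, two-sided) over rows with a mean log2 CPM above 0, with Benjamini-Hochberg adjustment over all 12306. Libraries were clustered within each group by the correlation of the same log2 values, and the interaction of group and cluster was tested. In a test on simulated data of this comparison with 12306 genes, 97 of 200 genes changed by 0.5 log2 and 199 of 200 changed by 1 were called, with 3 and 7 unchanged genes called. With no change simulated, 0 were called. The simulated libraries were drawn from 1 mean profile, without the clusters within each group. These rates thus do not carry over to the real libraries.

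The 9 genes and the lists were chosen with earlier results of these data known. All 9 genes were named, and from each list the called genes, apart from some that are not reported here. *Lias*, the other complex I subunits and the 3 lipoyl enzyme subunits were named after their values were seen. Gene models came from GENCODE M21 (GRCm38), near-identical transcripts from blastn 2.17.0+ (at least 95% identity over 100 bases), and promoters from RefSeq. The authors' columns of group means, fold changes and p-values were not used. Alternatives were other scalings, filters, pseudocounts, a voom fit on the recovered reads, cluster terms, a replicate block and leaving out libraries.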

Additional observations from a re-analysis of the deposited data

Results flagged for a closer look

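The total of 22375625 reads in control 5 stood far from the other controls, which held 57991647 to 65299372. Its gap to the nearest control was 0.830 of the range of the group. Of 20 groups of 5 values examined in this way, 1 was past the limit of 0.71, and chance gives about 1.

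The change with stiripentol differed between the 2 sets of libraries for 3 of the 9 genes (limma interaction, adjusted p under 0.05), against 63.3% of all genes. Set B minus set A was -0.84 for *Nfs1*, -3.00 for *Iba57* and 0.79 for *Lyrm4* on the log2 scale. What separates the sets is not given in the labels, and its part in these values was not tested. Within set A, treatment and the separate normalization of the controls cannot be told apart.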

How the results depend on the processing

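Under the filters, pseudocounts and voom, the calls of the 9 genes did not change. With each cluster averaged, *Nfs1* (-0.90), *Lyrm4* (0.86) and *Nfu1* (1.12) were not called, and 0 genes of the other lists and 0 of all genes were called in either direction by limma. At an unadjusted p under 0.05, 1 of the 9 and 1116 of all genes passed. With a term for the cluster, *Iscu* (-0.34), *Glrx5* (-0.44), *Isca2* (0.36), *Iba57* (-1.43) and *Nubpl* (0.40) were also called, giving 4 lower and 4 higher. The other lists then had 13 lower and 19 higher and all genes 3336 and 2908. Set A alone called 3 lower and 4 higher, including *Iscu* and *Glrx5* (both -0.51), *Isca2* (0.29) and *Nubpl* (0.58), beside 15 and 27 in the other lists and 3322 and 4637 of all genes. Set B alone called 2 lower, with *Iba57* at -3.23 and *Isca2* at 0.46, beside 14 and 25 in the other lists and 5726 and 3158 of all genes. Quantile normalization, centring on the median and median-of-ratios scaling each called 2 lower, with *Iba57* at -1.15, -1.35 and -1.36 and *Nubpl* at 0.64, 0.48 and 0.47. These scalings moved the median of all genes from -0.06 to 0.05, 0.03 and 0.02. The 7 libraries of 1 normalization, chosen after seeing the data, gave *Iscu* 0.13, *Glrx5* 0.27, *Npc2* -0.19 and *Nfs1* -0.74 (not called), with 0 of the 9 and 1 gene of the other lists lower. *Fam96b* (0.50), *Fars2* (0.73), *Gm28036* (-0.77), *Ercc2* (-0.52), *Dna2* (-0.72) and *Lipt2* (-1.49) were not called there. The controls among these 7 libraries were of set B only. The set and the normalization cannot be told apart there. The causes were not tested.

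The difference between the sets was called under quantile and median-of-ratios scaling for *Iscu* (0.84 and 0.83), *Isca1* (0.44 and 0.57), *Isca2* (0.61 and 0.57) and *Glrx5* (0.75 and 0.57). It turned to 0.24 for *Nubpl* under the former and to 0.20 for *Nfu1* under the latter. On the deposited values it was 0.43 for *Iscu*, 0.17 for *Isca1* and *Isca2*, 0.16 for *Glrx5* and -0.21 for *Nfu1*. Median-of-ratios scaling thus moved each of these upward by a like amount. The share of all genes called under these scalings is not given here, so the calls are not read as a result about these genes.

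Leaving out each library in turn gave log2 changes of -0.93 to -0.65 for *Nfs1* (called in 8 of 10), 0.31 to 0.41 for *Isca2* and -1.70 to -1.07 for *Iba57* (each called in 1 of 10), and -0.0317 to 0.17 for *Npc2*. The range was -0.49 to -0.20 for *Iscu*, -0.67 to -0.28 for *Glrx5* and 0.0787 to 0.18 for *Isca1*, none of them called. *Lyrm4* (0.65 to 0.87) and *Nfu1* (1.09 to 1.21) were called in all 10. Of the 9 genes 0 to 2 were lower and 2 to 3 higher, of the other lists 3 to 5 and 7 to 9, and of all genes 1171 to 1802 and 1218 to 1706.

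Libraries with the same deposited number did not deviate together (correlations of -0.240 to 0.0612), so these numbers were not taken as pairs. The paper prints the controls in another order, with controls 4 and 5 of this text first. Neither this check nor the block below tests pairs by the paper's numbers. With the replicate number as a block, *Nfs1* (-0.82) had an adjusted p of 0.0520 (limma), 0 of the 9 were lower, the other lists had 0 lower and 5 higher, and all genes 1062 and 1020.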

Other observations

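Among genes named in no comparison above, *Bola3*, which works with GLRX5 and NFU1, stood at 8.13 to 19.7 CPM in control and 15.4 to 36.3 CPM in stiripentol libraries. Its log2 change of 0.81 was not called (limma adjusted p = 0.0979), but it was 0.85 in set A and 0.76 in set B, each called alone (limma adjusted p = 8.66e-05 and 0.00152). *Fech* (ferrochelatase), a cluster protein that puts iron into heme, had log2 changes of 0.45 in set A and -0.89 in set B (limma interaction, adjusted p = 1.74e-06). Both genes were chosen after their values were seen.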
